A study of Rattus norvegicus with 11 samples.

Results

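Potassium channels that open when calcium or sodium builds up inside the cell are encoded by the Kcnma, Kcnmb, Kcnn and Kcnt genes. Every row of the deposited table whose symbol was 1 of 10 named members of these families was taken (Kcnma1, Kcnmb1, Kcnmb2, Kcnmb4, Kcnn1, Kcnn2, Kcnn3, Kcnn4, Kcnt1 and Kcnt2), and all 10 were present among the 16811 rows. The choice used names only, but it was made with earlier results of these data known. A gene was tested if 3 or more libraries reached a value of 10, which 12085 genes did, 9 of the 10 channel genes among them. Kcnmb1 did not reach this level and is described by its values.

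RNA was sequenced from dorsal root ganglia, the clusters of sensory neuron cell bodies beside the spinal cord, of Sprague-Dawley rats. A control group had a sham operation (Sham, n = 4). In another the spinal nerve had been ligated, an injury model of neuropathic pain (SNL, n = 4), and the remaining rats were given UNC0638 after the ligation (SNL plus UNC0638, n = 3). UNC0638 inhibits the histone methyltransferases G9a and GLP, and the title of the series concerns G9a and the silencing of potassium channel genes. Per the labels Sham samples are right-sided and both ligated groups left-sided, so that side and ligation cannot be told apart, and no group here had UNC0638 without ligation. The labels do not state the age or sex of the rats, the dose, the time after surgery or whether the libraries of a group came from separate animals. The p-values therefore measure the spread between these libraries, which may be technical.

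The large-conductance (BK) channel is built from a pore subunit, the product of Kcnma1, that opens when the membrane is depolarised and calcium binds on the inside, and from beta subunits that retune it. Small-conductance (SK) channels, from Kcnn1, Kcnn2 and Kcnn3, open as calcium rises inside the cell and contribute to the afterhyperpolarisation that follows action potentials. The related Kcnn4 channel is best known from red blood cells, lymphocytes and other immune cells. Slack and Slick, the products of Kcnt1 and Kcnt2, open as sodium enters during firing, and in sensory neurons channels of all these kinds restrain repetitive firing.

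The values are gene counts scaled by the authors to a common library size, called scaled counts here, and they were compared on the log2(value + 1) scale, which understates changes of low genes. Folds are ratios of group means, and a log2 fold change is the difference of mean log2 values. Library totals were 9450045 to 11347920, from an estimated 6127894 to 24367571 reads. A gene was called where its limma p-value, adjusted by the Benjamini-Hochberg method over all 12085 genes, was under 0.05. SNL plus UNC0638 replicate 1 stood apart from its label. Over 8 genes of injured neurons (Atf3, Sprr1a, Sox11, Gal, Npy, Vip, Jun and Gap43) its mean log2 level was 0.13 above the Sham mean, against 3.11 and 3.52 in replicates 2 and 3 and 4.65 to 5.17 in the SNL libraries. The summed level of 8 skeletal muscle genes was 75288 in this library and 143 to 538 in the other 10. Among the 3 SNL plus UNC0638 libraries it had the highest value for 6 of the 10 channel genes and the lowest for 3, and results for this group are given with and without it. Sensory neuron markers were present in all libraries, none of 9 being at 0. Bulk RNA cannot tell fewer cells of a type from less RNA per cell.

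Ligation was followed by opposite movements within the family. Of the 9 genes tested, 5 fell (Kcnma1, Kcnmb2, Kcnn2, Kcnt1 and Kcnt2), 3 rose (Kcnmb4, Kcnn1 and Kcnn4) and Kcnn3 did not pass the test. Kcnn2 fell most, being 4.81-fold lower in SNL than in Sham, and Kcnmb4 rose most, being 2.66-fold higher. Among all tested genes 48.2% were called in this comparison, 24.8% higher and 23.4% lower. Sham and SNL libraries did not overlap for 7 of the 9 (2 higher and 5 lower), against 43.3% of all tested genes (22.1% higher and 21.2% lower). The median log2 fold change of the 9 was -1.28, beside -0.0033 for all tested genes. In ligated ganglia with UNC0638, 7 of the 9 were called against SNL, each with the sign opposite to that of ligation: 5 were higher (Kcnma1, Kcnmb2, Kcnn2, Kcnt1 and Kcnt2) and 2 lower (Kcnmb4 and Kcnn1). Of all tested genes 27.8% were called there, 13.5% higher and 14.3% lower, and the medians were 1.09 for the channel genes and 0.0066 for all. For 8 of the 9 the libraries of these groups did not overlap (6 higher and 2 lower), against 37.6% of all tested genes (17.7% higher and 19.9% lower). Without SNL plus UNC0638 replicate 1 the number called was 5 of 9, beside 21% of all tested genes, as Kcnma1 and Kcnn2 missed the threshold. The alternative with limma-voom rescaled each library by its total of estimated reads, and weighted values by expected precision and by library quality. There the same 7 and Kcnn3 were called. Over all genes 3294 of 4832 calls were higher in that fit, against 1630 of 3356 here. Counts were simulated with these depths but with a single spread for all genes, unlike the data. There the comparisons with SNL plus UNC0638 gave more false calls than the threshold of 0.05 allows, so adjusted p-values near it may be too small. The comparisons share the SNL libraries, so that a high or low SNL value enters both with opposite sign.

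**Figure D1:**
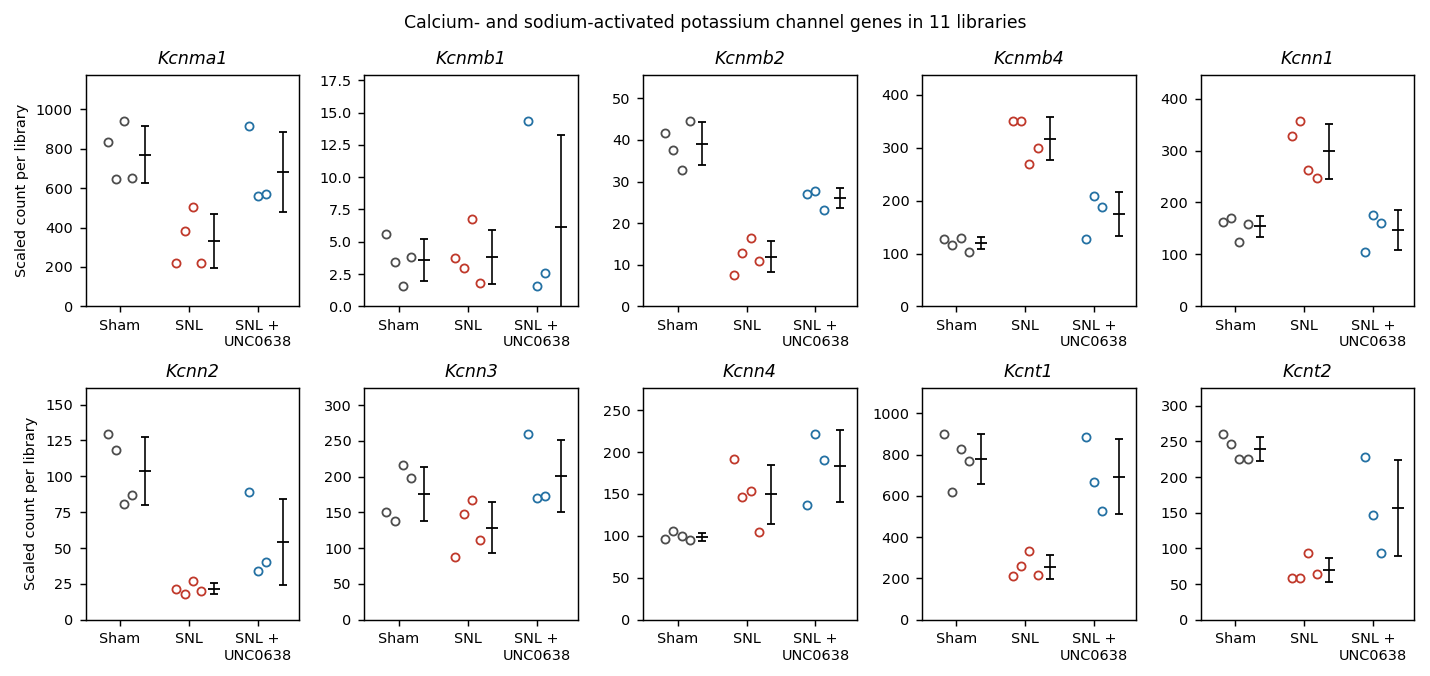
Scaled counts of the 10 channel genes (y axis, linear and starting at 0) in each library of the 3 groups (x axis), with circles for libraries and a bar for the mean ± SD at the right of each group; the lower end of the bar of Kcnmb1 in SNL plus UNC0638 is cut at 0. Kcnma1, Kcnt1, Kcnt2, Kcnn2 and Kcnmb2 have every SNL library below every Sham library, while Kcnmb4 and Kcnn1 have every SNL library above.

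The BK pore gene Kcnma1 stood at 835, 649, 941 and 649 scaled counts in Sham replicates 1 to 4, at 220.1, 381, 505 and 223 in SNL, and at 914, 560.04 and 570.2 in SNL plus UNC0638. All SNL libraries lay below all Sham libraries, and all UNC0638 libraries above all SNL libraries, with SNL replicate 3 the closest. The means were 768 ± 145 (SD, n = 4), 332 ± 137 (n = 4) and 681 ± 201 (n = 3), and ± stands for the SD over these libraries throughout. Kcnma1 was thus 2.31-fold lower after ligation (log2 fold change -1.28, SE 0.27, limma adjusted p = 0.00261). With UNC0638 it was 2.05-fold higher than in SNL (log2 fold change 1.09, SE 0.29, adjusted p = 0.0189). The second call was lost without SNL plus UNC0638 replicate 1 (log2 fold change 0.86, adjusted p = 0.0745), without SNL replicate 1 (0.92, adjusted p = 0.0535) and where replicate numbers entered as a block (0.97, adjusted p = 0.0511). Against Sham the UNC0638 libraries differed by -0.19 (95% confidence interval -0.83 to 0.45, adjusted p = 0.601).

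Beta subunits of the BK channel went separate ways. Kcnmb4 encodes the neuronal β4 subunit, which slows the opening of the channel and shifts its calcium dependence. It stood at 127, 117, 129 and 104 in Sham, at 351, 349.8, 269 and 300.1 in SNL, and at 127, 209 and 188 in SNL plus UNC0638. The means were 119 ± 11.6, 317 ± 40.1 and 175 ± 42.4. Each SNL library exceeded every library of the other groups, and SNL plus UNC0638 replicate 1 lay inside the Sham range while replicates 2 and 3 lay above it. The rise with ligation was 1.40 on the log2 scale (SE 0.17, limma adjusted p = 0.000134), and with UNC0638 the gene was lower than in SNL (log2 fold change -0.88, SE 0.18, adjusted p = 0.00541). Both calls held in all 23 alternative fits. Without SNL plus UNC0638 replicate 1 the second difference was -0.67 (adjusted p = 0.0172). Kcnmb4 remained above Sham in the inhibitor group (log2 fold change 0.52, SE 0.18, adjusted p = 0.0295), a call kept in 16 of 23 alternatives and lost without Sham replicate 2 or 4 or SNL plus UNC0638 replicate 2 or 3 (adjusted p = 0.0573 to 0.138).

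Kcnmb2 encodes the β2 subunit, which gives BK current fast inactivation. Its level was low, with an estimated 8 to 58 reads per library. The gene stood at 41.7, 37.5, 32.7 and 44.6 in Sham, at 7.52, 12.9, 16.5 and 10.9 in SNL and at 26.9, 27.8 and 23.2 in SNL plus UNC0638. The means were 39.1 ± 5.17, 11.96 ± 3.76 and 26.0 ± 2.45. The 3 groups did not overlap at all, and the inhibitor libraries lay between the others. It fell 3.27-fold with ligation (log2 fold change -1.67, SE 0.25, limma adjusted p = 0.000368) and was 2.17-fold higher with UNC0638 than in SNL (1.10, SE 0.27, adjusted p = 0.0132). Here replicate 1 was the middle library of its group, and without it the difference was 1.08 (adjusted p = 0.037). The difference between SNL plus UNC0638 and Sham was -0.57 (95% confidence interval -1.17 to 0.03, adjusted p = 0.103).

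Kcnmb1, the β1 subunit gene of smooth muscle, was close to the counting limit. It stood at 5.56, 3.41, 1.56 and 3.84 in Sham, at 3.76, 3.00, 6.76 and 1.82 in SNL and at 14.4, 1.55 and 2.58 in SNL plus UNC0638, where the first value rests on an estimated 16 reads and the others on 1 to 9. The highest value belonged to the library with high skeletal muscle genes, and the other 10 overlapped. Summed markers of mural and smooth muscle cells, the 6 found (Acta2 was absent), were 1418 to 1795 in Sham, 2307 to 3362 in SNL and 3900 to 4526 in SNL plus UNC0638, with none at 0 throughout a group. Des, 1 of the 6, varied widely in SNL plus UNC0638 (720 ± 626, against 166 ± 33.4 in SNL) and carries part of that sum. The part of these cells in the Kcnmb1 values was not tested. Fitted with no filter on low values, its differences were 0.05 (SE 0.54, limma adjusted p = 0.959) for ligation and 0.20 (SE 0.59, adjusted p = 0.826) for UNC0638 in ligated ganglia.

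The pore and β4 genes moved in opposite directions, and their ratio within a library set SNL apart from both other groups. Every SNL library lay above all others for Kcnmb4 and below all others for Kcnma1. The separation and its smallest possible p-values therefore follow from the single-gene values and add no further support. The ratio of scaled counts, which does not depend on library scaling and is not corrected for gene length, was 0.137 to 0.180 for Kcnmb4 over Kcnma1 in Sham, 0.533 to 1.59 in SNL and 0.139, 0.373 and 0.330 in SNL plus UNC0638 replicates 1 to 3. On the log2 scale SNL exceeded Sham by 2.69 (exact permutation p = 0.0286, two-sided, the smallest that 4 against 4 allows), and the inhibitor group was below SNL, with a difference of -1.97 (exact permutation p = 0.0571, the smallest for 4 against 3). Over the 12 ratio tests no adjusted p was under 0.114, and this number of libraries could not have given one under 0.05. Kcnmb2 over Kcnma1 had smaller differences. It differed by -0.47 between SNL and Sham (exact permutation p = 0.0571) and by 0.08 between the ligated groups (exact permutation p = 0.686), with overlapping libraries in both.

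**Figure D2:**
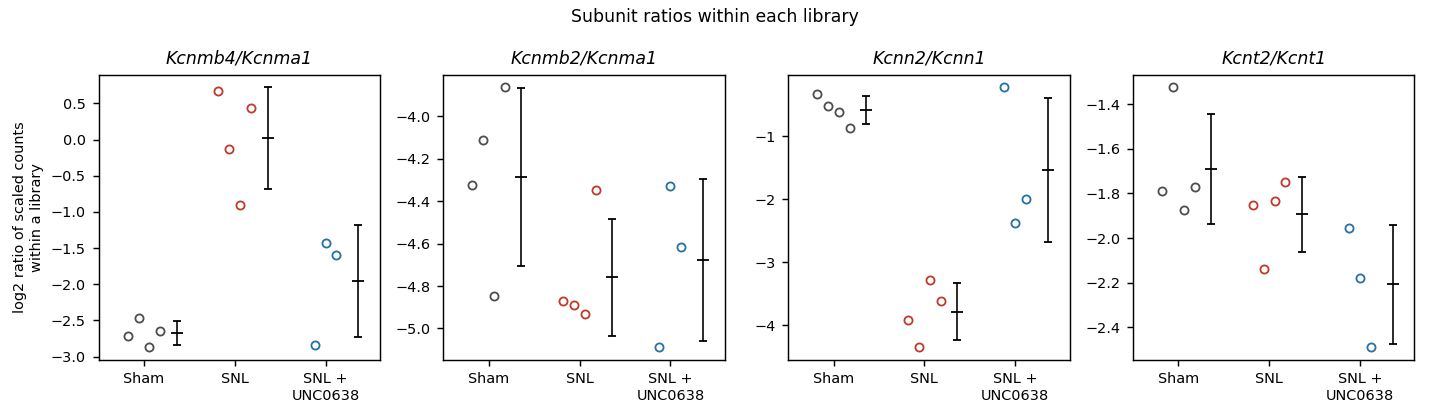
Log2 ratios of scaled counts of gene pairs within a library (y axis, a separate linear scale for each pair) by group (x axis), with circles for libraries and a bar for the mean ± SD. For Kcnmb4/Kcnma1 and Kcnn2/Kcnn1 no SNL library overlaps a Sham library, and SNL plus UNC0638 replicate 1 lies near Sham.

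The windows upstream of the annotated starts of 4 members are shown because Kcnma1, Kcnmb2 and Kcnt2 fell together after ligation while Kcnmb4 rose. The sequences are from RefSeq in build GRCr8, a later build than the authors' rn4, and give the 250 bases before each start, 5′ to 3′ in the direction of the gene, with CpG dinucleotides in capitals.
Kcnma1, chr15:351675-351924, plus strand: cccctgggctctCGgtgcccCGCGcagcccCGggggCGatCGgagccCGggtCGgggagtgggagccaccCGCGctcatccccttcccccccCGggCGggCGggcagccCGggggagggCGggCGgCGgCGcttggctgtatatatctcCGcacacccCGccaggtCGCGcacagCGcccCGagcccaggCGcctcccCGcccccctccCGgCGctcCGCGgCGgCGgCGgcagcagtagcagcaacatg
Kcnmb2, chr2:116599049-116599298, plus strand: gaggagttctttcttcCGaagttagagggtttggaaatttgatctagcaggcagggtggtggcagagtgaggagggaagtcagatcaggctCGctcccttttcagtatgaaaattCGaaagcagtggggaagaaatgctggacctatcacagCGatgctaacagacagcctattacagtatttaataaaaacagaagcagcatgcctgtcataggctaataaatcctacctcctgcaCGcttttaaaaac
Kcnmb4, chr7:54005102-54005351, minus strand: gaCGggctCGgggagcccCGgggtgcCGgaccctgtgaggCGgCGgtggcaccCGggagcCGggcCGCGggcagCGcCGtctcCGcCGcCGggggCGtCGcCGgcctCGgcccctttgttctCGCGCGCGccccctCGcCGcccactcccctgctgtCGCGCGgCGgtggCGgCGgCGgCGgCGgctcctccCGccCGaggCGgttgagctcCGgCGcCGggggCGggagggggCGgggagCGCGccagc
Kcnt2, chr13:54215057-54215306, plus strand: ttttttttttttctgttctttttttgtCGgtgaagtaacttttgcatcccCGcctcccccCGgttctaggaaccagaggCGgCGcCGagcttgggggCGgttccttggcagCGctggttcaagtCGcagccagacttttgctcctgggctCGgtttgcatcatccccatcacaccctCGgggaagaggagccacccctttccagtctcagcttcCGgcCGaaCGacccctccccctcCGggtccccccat
Of the 10 genes 8 matched the table of windows by symbol, with 9 windows because Kcnt1 has 2. The Kcnma1 window held 33 CpG dinucleotides and that of Kcnmb4 44, against a median of 5 over 33469 rat windows of this length, and 96.4% and 99.5% of all windows had fewer. The windows of Kcnmb2 and Kcnt2 held 5 and 15. Those of Kcnn2, Kcnn3 and Kcnmb1 held 22, 11 and 5, and the Kcnt1 windows 16 and 12. Kcnn1 and Kcnn4 had no window, so that Kcnmb4 was the only gene with a window that rose after ligation. A relation of CpG content to the changes was not tested. Motifs were searched on both strands, and one AP-1 spelling and TGACG both begin with TGAC. The AP-1 site (TGACTCA or TGAGTCA), which Atf3 and Jun proteins can bind, was in 0 of 9 windows and in 4.05% of all windows. The GC box (GGGCGG) was in 5 of 9 and in 30.5% of all. The first bases of the cyclic AMP response element (TGACG) were in 2 of 9 and in 18.2%. The CCAAT box was in 2 of 9 and 34.0% of all, and the TATA box (TATAAA) in 0 of 9 and 12.9%. A match is a run of letters and not a bound site.

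Among SK channel genes the 3 members also parted. Kcnn2, which encodes SK2, stood at 129, 118, 81.0 and 86.8 in Sham, at 21.6, 17.6, 27.0 and 20.1 in SNL and at 88.8, 34.0 and 39.99 in SNL plus UNC0638. The means were 104 ± 23.6, 21.6 ± 4.00 and 54.3 ± 30.0. SNL lay far below Sham in every library, and of the inhibitor libraries only replicate 1 reached the Sham range. Kcnn2 fell with ligation (log2 fold change -2.20, SE 0.30, limma adjusted p = 0.000196), and 1.94% of all tested genes had a lower log2 fold change. With UNC0638 the gene was 2.52-fold higher than in SNL (log2 fold change 1.18, SE 0.32, adjusted p = 0.0191). This call was lost without SNL plus UNC0638 replicate 1 (0.76, adjusted p = 0.0638) and without SNL replicate 2 (1.09, adjusted p = 0.0516). Kcnn2 stayed below Sham in the inhibitor group (log2 fold change -1.03, SE 0.32, adjusted p = 0.0186), also without replicate 1 (-1.44, adjusted p = 0.00128). That difference missed the threshold in 3 fits with a library left out, those without Sham replicate 1 (adjusted p = 0.0537), SNL plus UNC0638 replicate 2 (adjusted p = 0.0959) or SNL plus UNC0638 replicate 3 (adjusted p = 0.0778).

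Kcnn1, the gene of SK1, went the other way. It stood at 163, 170.4, 125 and 158 in Sham, at 328, 357, 263 and 246 in SNL and at 104, 176 and 159.96 in SNL plus UNC0638. The means were 154 ± 20.2, 299 ± 52.7 and 147 ± 37.9. Every SNL library exceeded every library of the other groups, whose values overlapped. The rise was 1.94-fold (log2 fold change 0.94, SE 0.19, limma adjusted p = 0.00184), and the inhibitor group was 2.03-fold lower than SNL (-1.04, SE 0.20, adjusted p = 0.00448). Replicate 1 was the lowest of all 11 libraries, and without it the second difference was -0.81 (adjusted p = 0.0153). Against Sham the inhibitor group differed by -0.09 (95% confidence interval -0.54 to 0.35, adjusted p = 0.717), and by 0.13 without replicate 1 (adjusted p = 0.571).

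The ratio of these SK genes within a library set SNL apart as well. This again follows from the single-gene values, as SNL libraries were the lowest for Kcnn2 and the highest for Kcnn1. Kcnn2 over Kcnn1 was 0.549 to 0.795 in Sham, 0.0492 to 0.103 in SNL and 0.853, 0.193 and 0.25 in SNL plus UNC0638 replicates 1 to 3. On the log2 scale SNL was below Sham, with a difference of -3.20 (exact permutation p = 0.0286, adjusted p = 0.114), and the inhibitor group above SNL by 2.26 (exact permutation p = 0.0571, adjusted p = 0.114), or 1.60 without replicate 1.

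Kcnn3, the gene of SK3, did not pass in any comparison. It stood at 150.2, 137, 217 and 198 in Sham, at 87.5, 148, 167 and 111 in SNL and at 259, 170.2 and 173 in SNL plus UNC0638. Its means were 175 ± 37.7, 129 ± 35.9 and 201 ± 50.6. Sham and SNL overlapped, and the inhibitor libraries lay above SNL replicate 3 by a small margin. Differences were -0.47 for ligation (95% confidence interval -0.97 to 0.04, limma adjusted p = 0.116) and 0.66 for UNC0638 in ligated ganglia (0.11 to 1.20, adjusted p = 0.0696). The second difference passed in 3 of 23 alternatives, among them the fit without SNL replicate 3 (0.80, adjusted p = 0.0316). Against Sham the inhibitor group differed by 0.19 (95% confidence interval -0.36 to 0.74, adjusted p = 0.545), and by -0.0076 without replicate 1.

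Kcnn4, whose channel sets the membrane potential of activated T cells and other immune cells, had an order of its own. It stood at 96.0, 106, 99.7 and 95.3 in Sham, at 192, 147, 154 and 105 in SNL and at 136, 221 and 191 in SNL plus UNC0638. Its means were 99.2 ± 4.74, 149 ± 35.7 and 183 ± 43.0. SNL replicate 4 lay within the Sham range, and the inhibitor libraries all lay above Sham. The rise with ligation was 0.55 (SE 0.20, limma adjusted p = 0.0351), a call lost in 6 of 11 fits with a library left out (adjusted p = 0.0523 to 0.107), namely when Sham replicate 1, 2 or 4 was removed, or SNL replicate 1, 2 or 3. With UNC0638 the difference from SNL was 0.29 (95% confidence interval -0.17 to 0.76, adjusted p = 0.307). Against Sham it was 0.85 (SE 0.21, adjusted p = 0.00607), or 1.05 without replicate 1 (adjusted p = 0.00229), and this call held in all 23 alternatives.

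Immune cell markers were also higher after ligation, where 24.8% of all tested genes were called higher. All 8 macrophage markers were measured, and their summed level was 1984 to 3842 in Sham, 6987 to 14218 in SNL and 8315 to 15582 in SNL plus UNC0638, with 7 called higher after ligation. The 6 T cell markers summed to 155 to 422 in Sham, 707 to 933 in SNL and 648 to 1098 in SNL plus UNC0638, with 4 of the 5 tested called higher after ligation. Most of this sum was Cd4, with means of 232 ± 119, 772 ± 99.0 and 725 ± 158 in these groups. Against Sham all 8 macrophage markers and the 5 T cell markers tested were called higher in the inhibitor group, with and without replicate 1. With all libraries 25.5% of all tested genes were called higher in this comparison. No macrophage or T cell marker was at 0 throughout a group. SNL replicate 4, where Kcnn4 lay within the Sham range, had a macrophage sum of 10347 and a T cell sum of 737, both above every Sham library. Markers of mural and smooth muscle cells (5 of 6), fibroblasts (5 of 5) and endothelial cells (3 of 3 tested) were called higher after ligation too. The 4 red blood cell genes summed to 608 to 1380 in Sham, 649 to 1776 in SNL and 218 to 514 in SNL plus UNC0638, so that they stood lowest in the group where the Kcnn4 mean was highest. The part of these cells in the Kcnn4 values was not tested.

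The sodium-activated genes fell together. Kcnt1, which encodes Slack, stood at 899, 618, 829 and 769 in Sham, at 211, 260.2, 334 and 218 in SNL and at 887, 665 and 528 in SNL plus UNC0638. Its means were 779 ± 119, 256 ± 56.6 and 693 ± 181. No SNL library came near the others, and Sham and inhibitor libraries overlapped. It was 3.04-fold lower after ligation (log2 fold change -1.61, SE 0.19, limma adjusted p = 0.000133) and 2.71-fold higher with UNC0638 than in SNL (1.43, SE 0.21, adjusted p = 0.00112). Both calls held in all 23 alternatives, with a difference of 1.23 for the second without SNL plus UNC0638 replicate 1 (adjusted p = 0.00406). Against Sham the inhibitor group differed by -0.19 (95% confidence interval -0.64 to 0.26, adjusted p = 0.468).

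Kcnt2, which encodes Slick, stood at 260.1, 247, 226 and 225 in Sham, at 58.3, 59.2, 93.9 and 64.8 in SNL and at 229, 147 and 94.2 in SNL plus UNC0638. Its means were 239 ± 17.0, 69.0 ± 16.8 and 157 ± 67.8. The SNL values were the lowest throughout, but SNL plus UNC0638 replicate 3 exceeded SNL replicate 3 by very little. It fell 3.47-fold with ligation (log2 fold change -1.80, SE 0.24, limma adjusted p = 0.000197) and was 2.27-fold higher with UNC0638 than in SNL (log2 fold change 1.11, SE 0.26, adjusted p = 0.0107, and 0.79 without replicate 1 with adjusted p = 0.037). The inhibitor group was lower than Sham (-0.70, SE 0.26, adjusted p = 0.0424), also without replicate 1 (-1.02, adjusted p = 0.00425), but that call was lost in 9 of 23 alternatives, 7 of them fits without a library (Sham replicate 1, 2 or 4, SNL replicate 2 or 4, SNL plus UNC0638 replicate 2 or 3; adjusted p = 0.0522 to 0.214). Kcnt2 over Kcnt1 within a library was 0.273 to 0.399 in Sham, 0.227 to 0.297 in SNL and 0.178 to 0.258 in SNL plus UNC0638, and the log2 difference between SNL and Sham was -0.20 (exact permutation p = 0.314). Between the inhibitor group and Sham it was -0.52, with no overlap (exact permutation p = 0.0571).

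**Figure D3:**
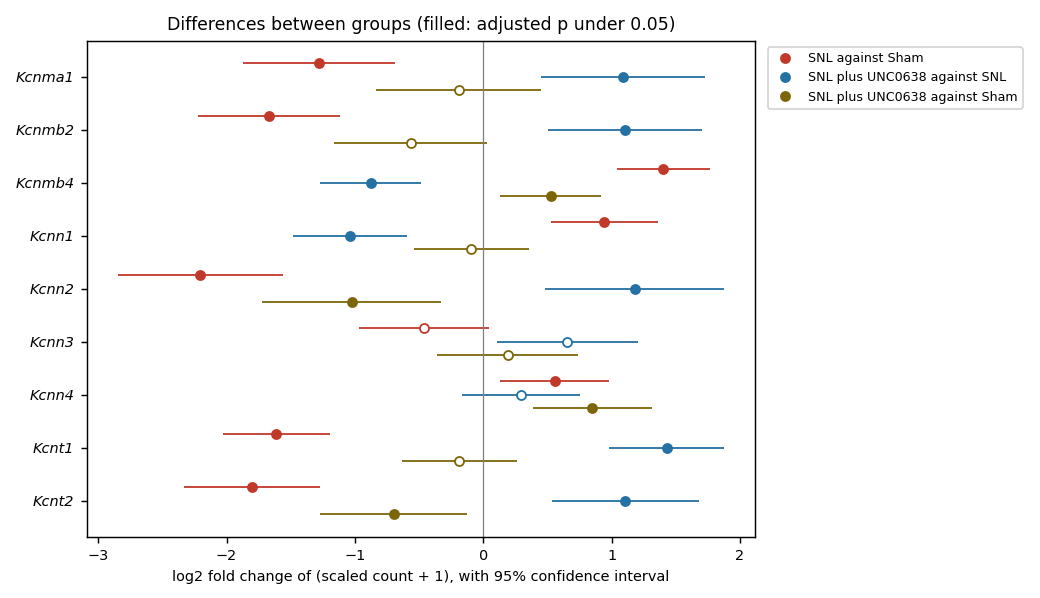
Log2 fold changes with 95% confidence intervals (x axis) of the 9 tested genes (y axis) in the 3 comparisons, with filled circles for an adjusted p under 0.05. Kcnma1, Kcnmb2, Kcnn2, Kcnt1 and Kcnt2 lie left of 0 for ligation and right of 0 for UNC0638 in ligated ganglia, and Kcnmb4 and Kcnn1 the reverse.

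Set against Sham, 4 of the 9 genes were called in the inhibitor group, with 2 higher (Kcnmb4 and Kcnn4) and 2 lower (Kcnn2 and Kcnt2). The share called was 51.5% of all tested genes, 25.5% higher and 26.0% lower. Without SNL plus UNC0638 replicate 1 the same 4 were called, beside 52.2% of all tested genes. Over all genes 4827 of 7709 calls were higher with limma-voom, against 3083 of 6220 here. Libraries did not overlap for 2 of the 9, Kcnn4 (higher) and Kcnmb2 (lower), against 48.4% of all tested genes (23.4% higher and 24.9% lower). The median log2 fold change of the 9 was -0.19, beside -0.01 over all tested genes. SNL plus UNC0638 replicate 1 lay within the Sham range for 5 of the 9 genes (Kcnma1, Kcnmb4, Kcnn2, Kcnt1 and Kcnt2). For replicates 2 and 3 alone the mean over the Sham mean was 0.735 for Kcnma1, 0.653 for Kcnmb2, 1.67 for Kcnmb4, 0.356 for Kcnn2, 0.766 for Kcnt1 and 0.504 for Kcnt2. It was 1.09 for Kcnn1, 0.978 for Kcnn3 and 2.08 for Kcnn4. The mean of these libraries lay between the Sham and SNL means for 8 of the 9 genes, and for Kcnn4 above both, at 1.38 times the SNL mean.

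**Figure D4:**
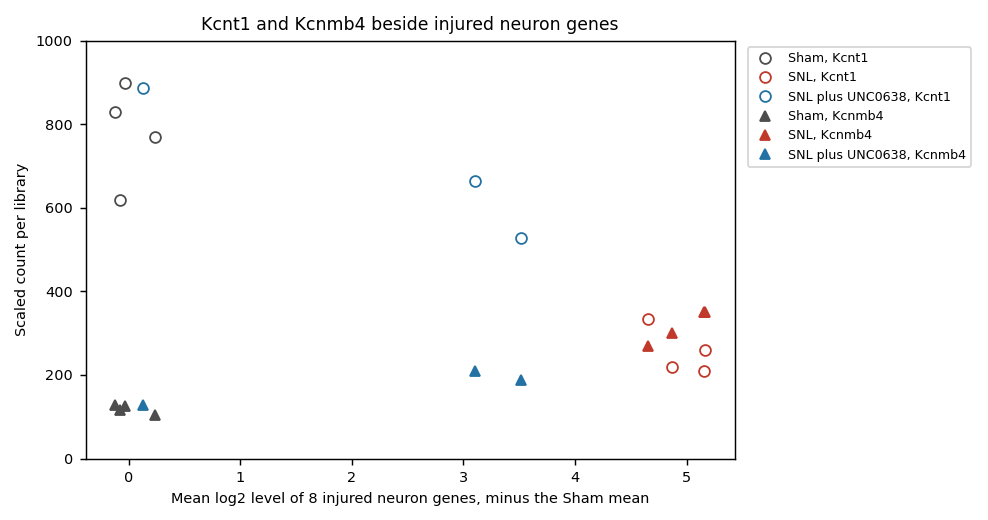
Scaled counts of Kcnt1 (circles) and Kcnmb4 (triangles) in each library (y axis, from 0) against the mean log2 level of 8 injured neuron genes minus the Sham mean (x axis), coloured by group. SNL plus UNC0638 replicate 1 sits among the Sham libraries at 0.13, and replicates 2 and 3 sit at 3.11 and 3.52, between Sham and SNL.

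Injured neuron genes also differed between the groups. After ligation 8 of 8 were called higher and with UNC0638 8 of 8 were called lower than in SNL, with and without replicate 1, and the summed level was 3799 to 5038 in Sham, 25707 to 39551 in SNL and 3695 to 13484 in SNL plus UNC0638. Of 9 sensory neuron markers 6 were called lower and 1 higher after ligation. With UNC0638 8 of the 9 were called lower than in Sham, and 1 higher and 3 lower than in SNL (median log2 fold change 0.39, or -0.098 without replicate 1). Their summed level was 126770 to 152830 in Sham, 134400 to 166563 in SNL and 74154.5 to 84712 in SNL plus UNC0638, a sum that a few abundant genes carry. The mean log2 level over the 9 genes minus that of Sham was -1.11 to -0.42 in SNL and -1.09 to -0.47 in SNL plus UNC0638, so that by this measure the ligated groups overlapped. Fibroblast markers, 5 of 5, rose with ligation as Kcnmb4 and Kcnn1 did, and 3 were lower with UNC0638 than in SNL, or 1 lower and 1 higher without replicate 1. Their summed level was 16503 to 23725 in Sham, 55709 to 112171 in SNL and 25970 to 55676 in SNL plus UNC0638. Of all tested genes 24.8% were called higher and 23.4% lower after ligation. For SNL plus UNC0638 against SNL the shares were 13.5% and 14.3%, and 26.0% were called lower with UNC0638 than in Sham. The part of these marker differences in the channel values was not tested.

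A second feature of the libraries touched the inhibitor comparison. The deviations of Sham replicate 3 and SNL replicate 3 from their own groups resembled each other (r = 0.431 across genes, as a description). SNL replicate 3 was as like SNL plus UNC0638 replicate 1 (r = 0.429) and unlike SNL plus UNC0638 replicate 3 (r = -0.446). The labels name a pair of extraction reagents without saying which library had which. A model term, added with the data known, set both replicate 3 libraries of Sham and SNL and all SNL plus UNC0638 libraries apart. It takes the whole inhibitor group to share the shift of those replicate 3 libraries, and so overlaps with the inhibitor comparison. Such a shared shift was not tested, as the deviations above were taken within groups. The term left 2 of the 9 genes called against SNL, beside 10.6% of all tested genes. They were Kcnt1 (log2 fold change 1.17, SE 0.23, limma adjusted p = 0.0121) and Kcnmb4 (-0.82, SE 0.23, adjusted p = 0.0409). Under this term Kcnma1 differed by 0.59 (SE 0.29, adjusted p = 0.221), Kcnmb2 by 0.98 (SE 0.36, adjusted p = 0.104) and Kcnn1 by -0.81 (SE 0.24, adjusted p = 0.0506). Kcnn2 differed by 1.18 (SE 0.41, adjusted p = 0.0921) and Kcnt2 by 0.91 (SE 0.33, adjusted p = 0.0953). Directions were the same as without the term. With both replicate 3 libraries left out in place of the term, 8 of 9 genes were called, the 7 and Kcnn3, beside 44.2% of all tested genes.

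**Figure D5:**
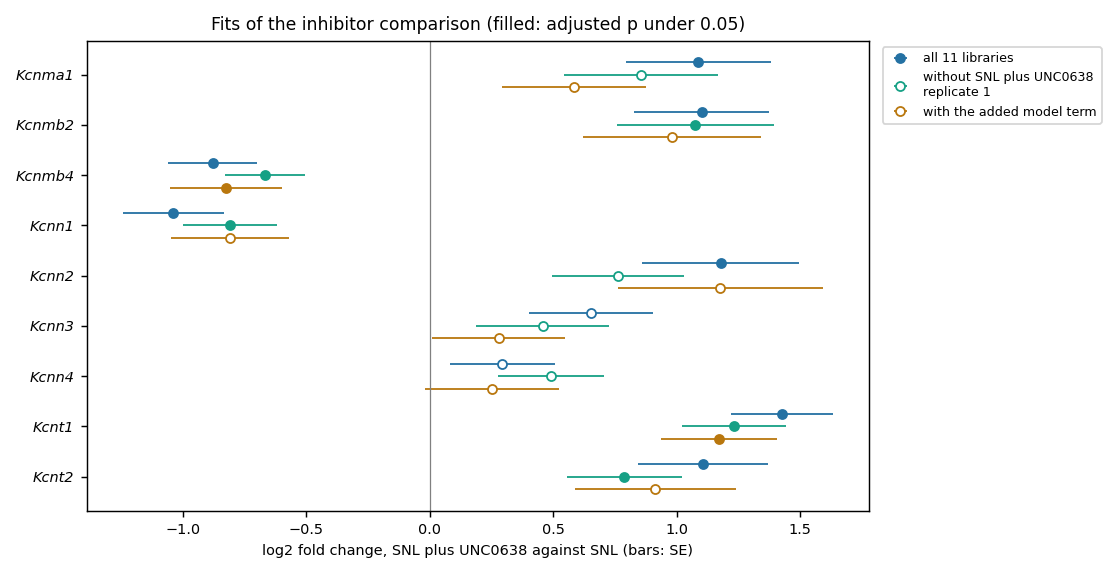
Log2 fold changes of SNL plus UNC0638 against SNL (x axis, bars ± SE) for the 9 tested genes (y axis) with all 11 libraries, without SNL plus UNC0638 replicate 1, and with the added model term, filled where the adjusted p was under 0.05. Kcnt1 and Kcnmb4 are filled in all 3 fits.

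Other parts of the channels' machinery were followed through 4 lists, chosen with earlier results of these data known. Their counts stand beside 48.2% of all tested genes called after ligation, 27.8% for SNL plus UNC0638 against SNL and 21% for the latter without replicate 1. Of 19 tested regulators and partners of these channels 11 fell and 2 rose with ligation (median log2 fold change -0.39), and with UNC0638 5 were higher and 4 lower than in SNL (median -0.073). Without replicate 1 the latter numbers were 2 and 4, and 6 of 19 is not far from the 21% of all genes. Prkg2 and Prkg1, kinases activated by cyclic GMP that can phosphorylate BK channels, fell from 169 ± 17.9 to 26.9 ± 13.0 and from 725 ± 54.6 to 355 ± 47.4 (limma adjusted p = 0.000125 and 0.000209). Crbn, whose product cereblon binds the BK pore subunit, fell from 4317 ± 1138 to 1780.4 ± 130.4 (adjusted p = 0.000485). With UNC0638, Ppp2ca, the catalytic subunit of a phosphatase held in SK channel complexes, was lower than in SNL (2570.1 ± 418 against 6144 ± 675, limma adjusted p = 0.00059, and 0.0024 without replicate 1). Lrrc52, a BK gamma subunit gene, stood at 4.94 ± 1.22 in Sham, 4.25 ± 1.17 in SNL and 19.1 ± 3.46 in SNL plus UNC0638. It was tested only because the inhibitor libraries reached a value of 10, so that these values too are a description.

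Other BK gamma subunit genes are named after their values were seen. Lrrc55 fell with ligation from 83.5 ± 20.7 to 30.5 ± 13.1 (log2 fold change -1.49, limma adjusted p = 0.003). Lrrc55 was higher with UNC0638 than in SNL (82.6 ± 31.1, log2 fold change 1.44, adjusted p = 0.012, and 1.16 with adjusted p = 0.0484 without replicate 1). Lrrc38 stood at 2.30 ± 1.96 in Sham, 20.4 ± 6.62 in SNL and 8.496 ± 1.15 in SNL plus UNC0638. It reached the value of 10 needed for testing in the SNL libraries only, so that its values are given as a description. Of the regulator counts above, the 2 that rose with ligation include Lrrc38, and the 5 that were higher with UNC0638 include Lrrc52.

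Calcium entry and release genes gave 4 higher and 3 lower of 17 after ligation and 7 higher and 1 lower with UNC0638 against SNL, or 2 higher and 1 lower without replicate 1. The 7 of 17 called after ligation and the 3 of 17 without replicate 1 lie below the 48.2% and 21% of all tested genes. Cacna1i, a T-type calcium channel gene, fell from 102 ± 20.4 to 15.8 ± 8.84 (limma adjusted p = 0.00026) and was higher than in SNL with UNC0638 (116 ± 48.5, adjusted p = 0.00121, and 0.00524 without replicate 1). Itpr2, a gene of the inositol trisphosphate receptors that release stored calcium, rose from 499 ± 97.2 to 953 ± 135, and Stim2, a sensor of stored calcium, fell from 1489 ± 151 to 990.03 ± 74.2 (adjusted p = 0.000595 and 0.000946). Cacna1c was higher with UNC0638 than in SNL (1459.9 ± 122 against 766 ± 199, adjusted p = 0.01, and 0.0355 without replicate 1).

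Calcium pumps, exchangers and buffers gave 1 higher and 8 lower of 12 after ligation, and 4 higher and 1 lower with UNC0638 against SNL, or 1 higher and 0 lower without replicate 1. The last, 1 of 12, is below the 21% of all tested genes. Atp2b4, a plasma membrane calcium pump gene, was the 1 that rose (584 ± 199 to 2398 ± 677, limma adjusted p = 0.000182), and the buffer genes Pvalb and Calb2 fell from 1399.7 ± 304 to 111 ± 169.5 and from 680.2 ± 172 to 77.5 ± 106 (adjusted p = 0.00111 and 0.00135). The exchanger gene Slc8a2 (262 ± 91.3 against 78.3 ± 62.8, adjusted p = 0.0192) and the pump gene Atp2b3 (768 ± 353 against 202 ± 169, adjusted p = 0.0124) were higher with UNC0638 than in SNL. Without replicate 1 Slc8a2 missed the threshold (adjusted p = 0.0647) and Atp2b3 passed (adjusted p = 0.0494).

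Sodium entry and clearance genes, the sodium side of Slack and Slick, gave 1 higher and 9 lower of 14 after ligation (median log2 fold change -0.83) and 6 higher and 1 lower with UNC0638 against SNL (median 0.90), or 4 higher and 1 lower without replicate 1, beside 48.2%, 27.8% and 21% of all tested genes. The sodium channel genes Scn11a, Scn1a and Scn10a had the smallest p-values after ligation, with log2 fold changes of -4.00, -2.36 and -2.97 (limma adjusted p = 0.000106, 0.000139 and 0.000304). With UNC0638, Scn11a and Scn10a had the smallest, at 3.28 and 2.68 (adjusted p = 0.00104 and 0.00257), or 2.95 and 2.39 without replicate 1 (adjusted p = 0.00417 and 0.012).

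Among all tested genes, those with the pattern most like each member were found by Pearson's r of log2(value + 1) over the 11 libraries, which share groups and depth, as a description. They were Dscam and Usp31 for Kcnma1 (r = 0.990 and 0.988), Trpv1 and Kcnf1 for Kcnmb2 (0.984 and 0.983), Hist2h3c2 and Tmem98 for Kcnmb4 (0.983 and 0.982, the former a histone gene with near-identical copies whose reads could be split) and Pcyt2 and Cttn for Kcnn1 (0.970 and 0.967). For Kcnn2 they were Gna14 and Camk4 (0.981 and 0.981), for Kcnn3 Slc7a1 and Synrg (0.957 and 0.954), for Kcnt1 Dapk1 and Tcte1 (0.992 and 0.991) and for Kcnt2 Galnt18 and Ephx1 (0.991 and 0.991). Ltb and Il2ra, genes of lymphotoxin beta and an interleukin receptor chain of lymphocytes, were most like Kcnn4 (0.937 and 0.937). Within the family, r was highest between Kcnn2 and Kcnt2 (0.963) and lowest between Kcnmb4 and Kcnn2 (-0.964).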

How the data were processed

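Stranded total RNA libraries, depleted of ribosomal RNA, were sequenced in single 50 base reads, per the series' design text, and RNA had been extracted with either of 2 reagents, per the labels' protocols. The authors aligned to rn4 with TopHat2 2.0.9 and named Cuffdiff 2.1.1, per the submitters' processing notes. Annotation, strand setting and handling of shared reads: not given in the sources used here. Judged by its values, the deposited signal is a gene count scaled by the authors with 1 factor for each library: of low values (up to 20 steps), 98.7% to 99.5% were whole multiples, within 0.01, of 1 step per library, from which reads were estimated. Between replicates the variance was 5.65 to 76.7 times that of counting alone.

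Genes that reached 10 in 3 or more libraries were tested. Pcdhgc5 and Sdc2, at 0 in every library of 1 group and at 40 or more in all others, were dropped, a choice made on seeing their values. limma 3.58.1 (R 4.3.3, statmod 1.5.0) took log2(value + 1) of all 11 libraries, with group means and eBayes (trend, robust). The fit was tested on simulated data, where the comparisons with the SNL plus UNC0638 libraries gave false calls above the nominal rate. Tests were two-sided. Ratios were tested by exact permutation (scipy 1.17.1), with 4 ratios in 3 comparisons adjusted together. The members and lists were chosen with earlier results of these data known. The naming rule takes all members, from each list up to 3 called genes of smallest p for ligation and up to 2 for UNC0638 against SNL, and the 2 genes most like each member. Alternatives were other pseudocounts, filters and scalings, limma-voom with library quality weights, and eBayes without robust estimates. Further ones were 2 groups only, a replicate block and leaving out each library. A model term and the removal of both replicate 3 libraries were added with the data known.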

Additional observations from a re-analysis of the deposited data

How the results depend on the processing

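After ligation 7 or 8 of the 9 genes were called in all 23 alternatives, 7 to 8 with a library left out. In the fit used above 48.2% of all tested genes were called. For SNL plus UNC0638 against SNL the number was 7, from 5 to 8 with a library left out, and 2 with the added model term. For SNL plus UNC0638 against Sham it was 4, beside 51.5% of all tested genes, and from 1 to 4 with a library left out. It was 2 with only the 2 groups compared, with the replicate block and with the model term, the last beside 42.4% of all tested genes. The cause was not tested. Without SNL plus UNC0638 replicate 2 or 3, that number was 1. Kcnn1 in this comparison, -0.09, turned to 0.13 with limma-voom, 0.14 with the model term and 0.13 without SNL plus UNC0638 replicate 1 (-0.24 to 0.13 with a library left out). Kcnn3, 0.19, turned to -0.19 with the term and -0.0076 without that replicate (-0.0076 to 0.30 with 1 or both replicate 3 libraries, or another library, left out). The difference in Kcnmb2/Kcnma1 between the ligated groups, 0.08, ranged from -0.092 to 0.29 with a library left out, the only reversal in 100 ratio alternatives. Same-numbered libraries did not pair (r = -0.446 to 0.431, 2 of 10 above 0.1). With the replicate block 8, 6 and 2 genes were called in the 3 comparisons, and the Kcnma1, Kcnmb4 and Kcnt2 calls that were lost had log2 fold changes of 0.97, 0.48 and -0.72. A count-model test was not run, as whole reads were not recovered for all values, and limma-voom took estimated reads rounded to whole numbers. No group of 4 libraries had a channel gene value far from the rest by Dixon's test (0 of 20). Over all genes, 3356 were called for SNL plus UNC0638 against SNL, 2126 with the block, 1286 with the term, 5346 without both replicate 3 libraries, 2078 without SNL replicate 1 and 2098 without SNL plus UNC0638 replicate 2. limma-voom, with libraries rescaled by their totals, moved the median of all genes to 0.13 (against SNL) and 0.19 (against Sham). Kcnmb1 rests on 1 to 16 estimated reads per library.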
